A study of Mus musculus with 21 samples.

Results

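The enzymes of oxidative phosphorylation make most of a respiring cell's ATP in the inner mitochondrial membrane. Complexes I and II pass electrons from NADH and succinate to coenzyme Q, complex III passes them on to cytochrome c, complex IV reduces oxygen, and complex V, the ATP synthase, uses the proton gradient that complexes I, III and IV build. Their subunits are encoded in the nucleus except for a small set encoded by mitochondrial DNA, and several complex IV subunits exist as isoforms that differ between tissues, with forms known from heart, muscle and testis. Embryonic stem (ES) cells are known for relying strongly on glycolysis, and male germ cells pass from the metabolism of spermatocytes to that of sperm as they mature.

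The nuclear-encoded genes of these complexes were taken from mouse expression arrays by gene symbol: symbols starting with Nduf, Uqcr, Cox4, Cox5, Cox6, Cox7, Cox8 or Atp5, together with Sdha, Sdhb, Sdhc, Sdhd and Cyc1, and without Cox6b2 and Cox7b2. Of 18193 genes with a probe set of 1 symbol, 89 were members: 34 subunits of complex I, 8 complex I assembly factors (Ndufaf genes), 4 subunits of complex II, 9 of complex III, 17 of complex IV and 17 of complex V. Ndufa4, first described with complex I, and its relative Ndufa4l2 were placed with complex IV. Together the members had 178 probe sets. Where a gene had several, the brightest on average represented it, as was so for 51 members.

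The study measured 21 arrays in 7 groups of 3. The androgenetic haploid embryonic stem (ahES) lines AH129-5, AH129-N1 and AH129-NC1 carry only a paternal genome of the 129 Sv background and were sorted as haploid cells in G0/G1. The diploid ES lines CS1-1 and R1 are also 129 Sv, with no sort stated, and all 5 ES lines were grown in N2B27 medium with 2i and LIF and are each a single line. Mouse embryonic fibroblasts (MEF) were of CD1 background and grown in DMEM with serum, and round sperm were 129 Sv haploid germ cells sorted in G0/G1 straight from testis. The labels call the 3 arrays of a group biological replicates without naming separate cultures or animals, so the p-values below measure the spread between these samples, which may be technical. In these bulk samples, fewer cells of a type and less RNA per cell cannot be told apart.

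Values are log2(MAS5 signal + 9.70), called levels here, and a difference is a difference of mean levels. Tests were limma fits over all genes with Benjamini-Hochberg adjustment, and a gene passed where its adjusted p was under 0.05 and its groups differed at least 2-fold. Marker genes matched the labels: 10 of 10 ES markers lay above the 40th percentile of every array in each ES line, 11 of 11 fibroblast markers in MEF and 10 of 10 spermatid markers in round sperm, against 0 of 10 spermatid markers in each other group. Markers of other cell types were present too. Among fibroblast markers, 10 of 11 were above that percentile in the 3 ahES lines and in R1 (summed signal 18800 to 30100) and 8 of 11 in CS1-1 (3020 to 3780), against a summed signal of 166000 to 169000 in MEF. Among spermatocyte markers, 7 of 8 were above it in round sperm, with a summed signal of 11700 to 12700. There, 4 of 9 Sertoli markers were above it (Sox9, Fshr, Rhox5 and Clu, summed signal 496 to 601). So were 2 of 6 Leydig and peritubular markers (Cyp17a1 and Acta2, 680 to 819) and 2 of 5 blood markers (Cd52 and Csf1r, 274 to 301). The others of these lists, such as Amh, Star and Ptprc, were at or below. Of ES markers 6 of 10 (1270 to 1420) and of muscle markers 2 of 6 (327 to 381) were also above it in round sperm.

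The promoters of the members are shown first, because the factors NRF1 and GABPA (an ETS factor) and YY1 are known to bind the promoters of many respiratory genes. RefSeq windows of 300 bases, 250 before to 50 after the gene start (GRCm38.p6), were found for 72 members. Of these 72 windows, 26.4% held the NRF1 motif GCGCANGCG on either strand, against 6.47% of all 27025 promoters (first window listed per gene) and 12.2% of the 11831 promoters of genes tested against round sperm. The ETS motif CCGGAAG was in 25% of the members' windows, against 9.12% and 15.9%, and the YY1 motif AAGATGGC in 12.5%, against 2.88% and 4.23%. The motif AAGGTCA of the oestrogen-related receptors was in 11.1%, against 4.66% and 3.47%. At least 1 of the NRF1, ETS and YY1 motifs was in 39 of 72 windows, or 54.2%, against 28.4% of promoters of genes tested. Such a match is a description of the letters, not of a bound site. In the windows printed below, no match of 1 motif overlaps a match of another motif, though the NRF1 letters of Atp5g2 match on both strands.

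The promoters of 6 members illustrate the motifs, each from 120 bases before to 30 bases after the start, 5′ to 3′ on the gene's strand, with matches of the NRF1, ETS or YY1 motif (either strand) in capitals. Cox8a, Atp5g2, Uqcr11 and Sdhd were among the members lower in round sperm than in ahES cells, Ndufaf8 was higher there, and Cox6a1 did not pass in either direction.
Cox8a, chr19:7217587-7217736, minus strand: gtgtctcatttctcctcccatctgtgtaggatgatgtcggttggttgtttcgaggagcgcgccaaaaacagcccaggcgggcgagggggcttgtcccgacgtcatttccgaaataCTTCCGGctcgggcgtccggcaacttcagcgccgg
Atp5g2, chr15:102671018-102671167, minus strand: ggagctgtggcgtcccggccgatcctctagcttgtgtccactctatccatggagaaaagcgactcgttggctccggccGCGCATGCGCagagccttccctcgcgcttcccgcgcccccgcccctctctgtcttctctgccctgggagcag
Uqcr11, chr10:80406792-80406941, minus strand: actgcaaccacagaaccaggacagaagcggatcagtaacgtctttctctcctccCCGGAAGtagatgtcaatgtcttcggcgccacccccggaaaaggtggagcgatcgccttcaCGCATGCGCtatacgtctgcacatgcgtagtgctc
Sdhd, chr9:50603820-50603969, minus strand: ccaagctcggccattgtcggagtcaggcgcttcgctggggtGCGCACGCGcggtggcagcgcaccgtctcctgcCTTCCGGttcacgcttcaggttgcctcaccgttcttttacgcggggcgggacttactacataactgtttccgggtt
Ndufaf8, chr11:120098814-120098963, plus strand: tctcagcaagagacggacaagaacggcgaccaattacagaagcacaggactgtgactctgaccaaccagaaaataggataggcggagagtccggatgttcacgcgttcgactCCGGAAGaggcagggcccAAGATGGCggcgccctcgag
Cox6a1, chr5:115348929-115349078, minus strand: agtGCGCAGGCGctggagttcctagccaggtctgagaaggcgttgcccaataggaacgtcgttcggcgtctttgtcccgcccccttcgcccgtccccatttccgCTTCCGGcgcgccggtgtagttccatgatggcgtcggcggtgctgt
The NRF1 letters in Atp5g2, the ETS letters in Cox8a, and both in Sdhd and Uqcr11 lie in members that were low in round sperm. Cox6a1, which holds the same 2 motifs, differed by 0.43 ± 0.06 (SE) between ahES cells and round sperm. Over the windows, at least 1 of the 3 motifs was in 12 of 22 members that were lower in round sperm (54.5%), in 2 of 5 that were higher there (40%) and in 24 of 43 that did not pass (55.8%).

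Across the 5 ES lines the members stood close together, with MEF slightly lower and round sperm apart. The median member level was 12.67 to 12.90 on the 15 ES arrays, 12.52 to 12.55 on the MEF arrays and 12.15 to 12.41 on the round sperm arrays. Over the same arrays the median of all genes tested was 8.29 to 8.41 in ES lines, 8.43 to 8.45 in MEF and 7.75 to 7.91 in round sperm. The range of a member's mean over the 5 ES lines had a median of 0.37 over the 87 members tested, against 0.75 over all genes. Members lie at higher levels than most genes, and the part of level in this and later comparisons of spread with all genes was not tested. Round sperm had the lowest mean of the 7 groups for 43 of 87 members and the highest for 27, while among all genes it was lowest for 42.4% and highest for 36.6%. MEF were lowest for 25 of the 87 members and highest for 3, against 22.2% and 21.4% of all genes. Cox8b and Ndufb4 were not tested, because the probe set used for each was low in every group. Probe sets with several symbols, such as those of the related Ndufb4b and Ndufb4c, were not used. Whether Ndufb4 itself is low therefore cannot be told here.

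**Figure D1:**
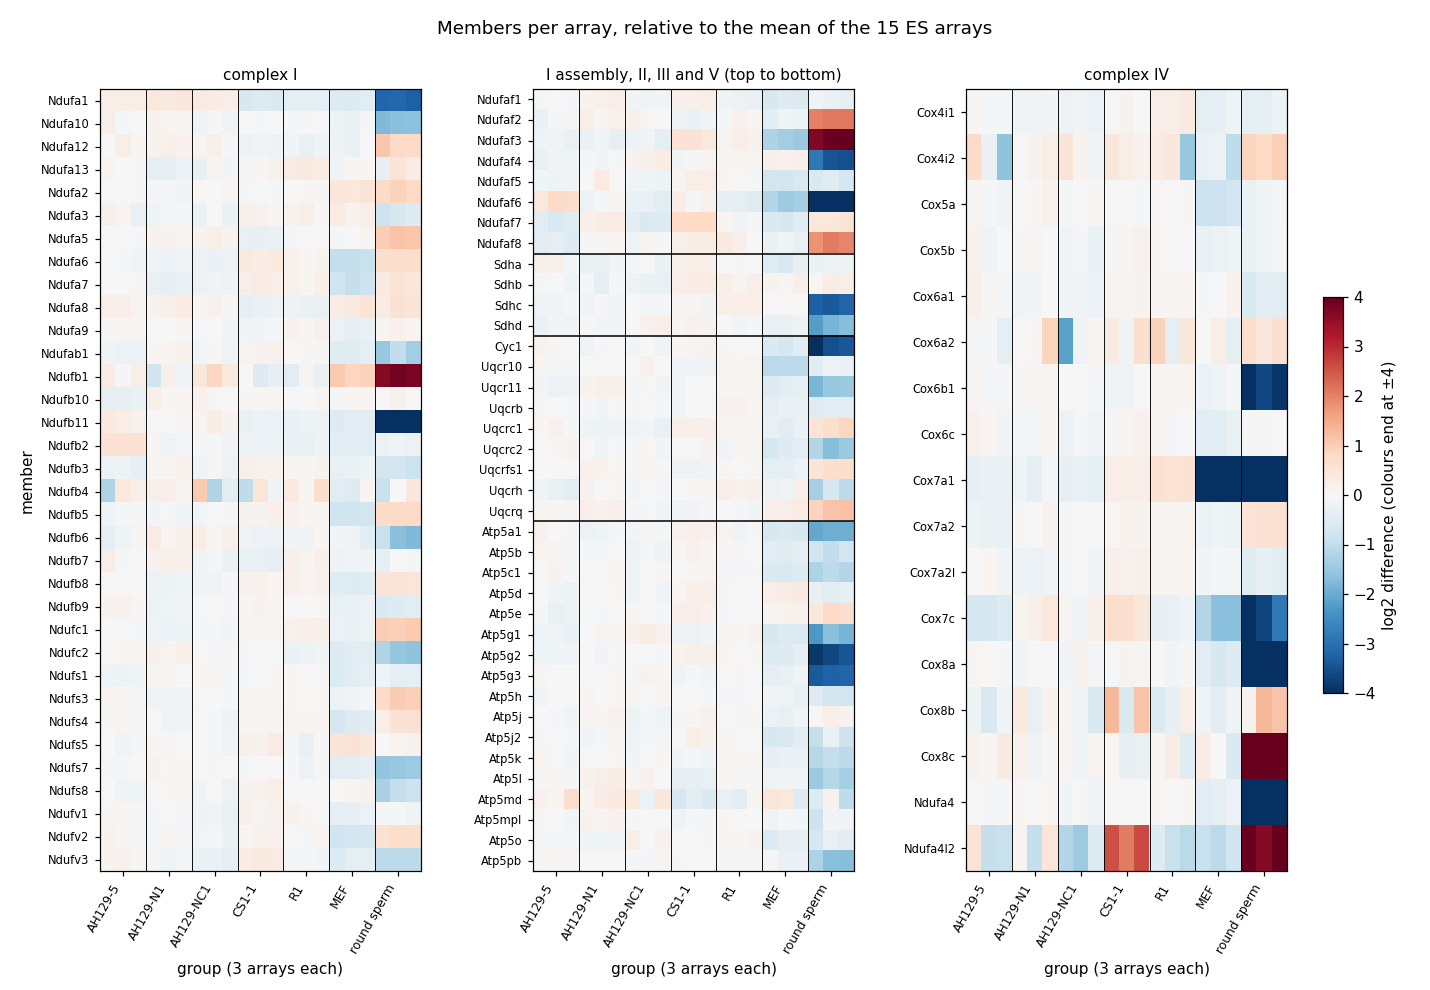
Level of each of the 89 members (rows, by complex) on each of the 21 arrays (columns, 3 per group), as the log2 difference from that member's mean over the 15 ES arrays; colours end at 4 in either direction. The ES columns are pale for most members, and the round sperm columns hold the strongest colours in both directions, with Cox7a1 dark blue in both MEF and round sperm.

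The comparison of ahES cells with diploid ES cells sets haploid cells with only a paternal genome beside diploid ones. Ploidy, parental genome and the G0/G1 sort of the ahES cells cannot be told apart in it. No member passed: 0 of 87 were higher, where 3% of the 12891 genes tested were, and 0 were lower, where 1.35% were (limma, cell line as a random block). The median difference was -0.08, against -0.03 over all genes, and 93.1% of members differed by less than 0.5, against 73.0% of all genes. Without the 2-fold requirement, 3 members (3.45%) were higher at an adjusted p under 0.05, against 6.52% of all genes, and 8 (9.20%) were lower, against 5.16%. At an unadjusted p under 0.05, 22 members (25.3%) differed, against 24% of all genes. Of these, 7 (8.05%) were higher, against 11.5%, and 15 (17.2%) lower, against 12.5%. These counts do not cover Cox7b2, a complex IV isoform gene left out by the rule. Its mean level was 9.48 ± 0.6 (SD, n = 9) in ahES cells and 5.19 ± 0.93 (n = 6), near the array background, in diploid ES cells. By line its means were 8.91 to 10.24 in ahES cells, 4.5 in CS1-1 and 5.89 in R1.

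The 3 members that were higher at this p were complex I subunits. Ndufa1, an X-linked accessory subunit of the membrane arm, was at 14.16, 14.20 and 14.34 (lowest, median, highest of 9 arrays) in ahES cells and at 13.27, 13.42 and 13.52 (6 arrays) in diploid ES cells, a difference of 0.82 ± 0.08 (SE; limma adjusted p = 2.47e-07). Every ahES array lay above every diploid array. Ndufb11, the other X-linked member, was at 13.47, 13.62 and 13.85 against 13.17, 13.23 and 13.28, and differed by 0.41 ± 0.10 (adjusted p = 0.0113). The groups did not overlap here either. The other Ndufb11 probe sets gave 0.43 and 0.15. On the latter, the AH129-N1 mean of 12.76 lay below the CS1-1 mean of 12.98, so the separation rests on the choice of probe set. Ndufa8, an accessory subunit that is not X-linked, differed by 0.45 ± 0.11 (adjusted p = 0.00753).

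The 8 members that were lower in ahES cells at this p were spread over complexes I, II and IV. Cox7a1, the heart and muscle isoform of a complex IV subunit, was at 9.75, 9.81 and 10.03 in ahES cells and at 10.35, 10.54 and 10.73 in diploid ES cells, a difference of -0.69 ± 0.13 (adjusted p = 0.00113). Its groups did not overlap. The complex I assembly factor Ndufaf3 differed by -0.59 ± 0.16 and Sdhb, the iron-sulfur subunit of succinate dehydrogenase, by -0.42 ± 0.12. The others were the complex I subunits Ndufa6, Ndufa7, Ndufb8 and Ndufc1, from -0.42 to -0.26, and Cox4i1, the widely expressed Cox4 isoform, at -0.30 ± 0.10, whose arrays overlapped between the groups.

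The diploid lines differed from each other in 1 member. Ndufa4l2, known as a hypoxia-induced relative of Ndufa4, was at 7.81, 7.32 and 7.90 on the CS1-1 arrays and at 4.73, 4.37 and 4.16 on the R1 arrays, so CS1-1 was at least 4.48-fold higher, since the R1 mean lay at or below the 40th percentile of its arrays (limma difference 3.25 ± 0.46, adjusted p = 7.29e-06). The 9 ahES arrays ran from 3.80 to 5.79, below every CS1-1 array and overlapping R1. This was 1 of 87 members (1.15%), against 9.87% of the 12100 genes tested between CS1-1 and R1. Without line R1, the comparison of ahES with diploid ES cells had 2 lower members. Ndufa4l2 was at least 4.39-fold lower, its ahES mean lying at or below the 40th percentile, and the complex I assembly factor Ndufaf7 differed by -1.04. At any fold, 21 members (24.1%) were higher in CS1-1 than in R1 at an adjusted p under 0.05, against 25.9% of genes, and 19 (21.8%) were lower, against 23.8%. The 3 members on chromosome 8, Cox4i1, Ndufa13 and Ndufb7, were among the lower ones, at -0.25, -0.29 and -0.48.

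Between the ahES lines no member passed. The background was 5.31% of genes for AH129-5 against AH129-N1, 5.37% for AH129-5 against AH129-NC1 and 3.11% for AH129-N1 against AH129-NC1, and these 3 comparisons share lines. Ndufaf6, a complex I assembly factor, had its highest values in AH129-5, at 10.88, 11.27 and 11.16, and was at 10.24, 10.40 and 10.58 in AH129-N1 and at 10.20, 10.17 and 10.02 in AH129-NC1. Cox7c, a small structural subunit of complex IV, was at 8.30, 8.35 and 8.46 in AH129-5 against 9.13, 9.22 and 9.43 in AH129-N1. Neither gene's AH129-5 arrays overlapped those of the other ahES lines, though both differences stayed under 2-fold.

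The comparison of ahES cells with MEF sets haploid stem cells beside differentiated cells, and strain and medium cannot be told apart from cell type in it. Most members were slightly higher in ahES cells, and few by 2-fold. At any fold, 61 of 86 members (70.9%) were higher at an adjusted p under 0.05, against 40.8% of the 13220 genes tested, and 10 (11.6%) were lower, against 36.1%. With the 2-fold requirement, 5 (5.81%) were higher, against 21.1%, and 0 were lower, against 21%. The median difference was 0.29, against 0.08 over all genes. By complex it was 0.27 for complex I, 0.46 for its assembly factors, 0.07 for complex II, 0.37 for complex III, 0.20 for complex IV and 0.28 for complex V. With arrays centred on their median, which moved the median of all genes to 0.21, the members' median was 0.42. Quantile normalization gave 0.23 for the members, against 0.10 for all genes. Of 17 members on _x_at or _s_at probe sets, which may also read related sequences, 9 were higher and 5 lower at any fold. Of the 69 tested on other probe sets, 52 were higher and 5 lower.

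Cox7a1 differed most. It was at 9.75, 9.81 and 10.03 (lowest, median, highest) in ahES cells and at 5.61, 5.97 and 5.84 on the MEF arrays, 16.4-fold higher in ahES cells (difference 4.04 ± 0.12, adjusted p = 3.69e-17). The ES arrays ran from 9.75 to 10.73, and the MEF and round sperm arrays from 4.70 to 5.97. Its widely expressed counterpart Cox7a2 differed by 0.13 ± 0.04 from MEF.

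The other 4 members that rose against MEF were a complex III subunit, another complex IV subunit and a pair of assembly factors. Cox7c was at 7.83, 7.33 and 7.34 in MEF and at 8.30, 9.13 and 9.43 in ahES cells, a difference of 1.40 ± 0.21 (adjusted p = 4.50e-06). Its groups did not overlap, with the lowest ahES arrays those of AH129-5. Whether the Cox7c probe sets, at 8.90 and 7.54 in ahES cells, read its main transcript was not tested. Ndufaf6 differed by 1.42 ± 0.14 and Ndufaf3 by 1.13 ± 0.08. Uqcr10, a small subunit of complex III, was at 11.79, 11.83 and 11.82 in MEF and at 12.79, 12.88 and 13.02 in ahES cells, a difference of 1.07 ± 0.05 (adjusted p = 1.60e-14). Its other probe sets gave the same direction with larger sizes, 3.55 on one and at least 19.2-fold on the other, whose MEF mean lay at or below the 40th percentile, so the size of this difference depends on the probe set.

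Members lower in ahES cells than in MEF at any fold all stayed under 2-fold. They were led by Ndufb1, an accessory subunit of complex I, at -0.78 ± 0.17, and Ndufs5, another accessory subunit, at -0.55. Ndufs5 and Atp5d, the delta subunit of the ATP synthase, were the only members whose 3 MEF arrays lay above the other 18 (2.33%, against 21.3% of genes), while for 15 members (17.4%, against 11.2%) they lay below.

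**Figure D2:**
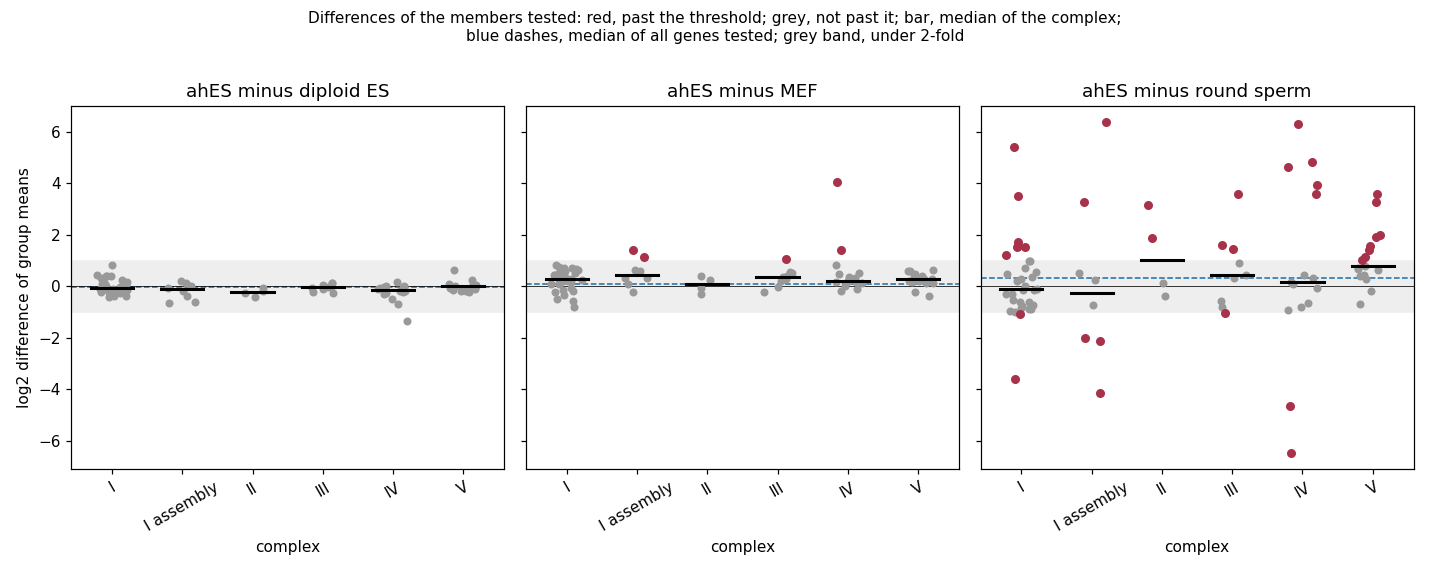
Difference of mean levels (log2, y axis) of each member tested in ahES cells against diploid ES cells, MEF and round sperm, by complex (x axis). Points are members, red where they passed the test; the bar is the median of the complex, the dashed line the median of all genes tested. No point is red against diploid ES cells, 5 are against MEF and 35 against round sperm.

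Round sperm differed from ahES cells in both directions, and within every complex some members fell while others did not. Against round sperm, 27 of 87 members (31.0%) were higher in ahES cells, where 40.8% of the 14765 genes tested were, and 8 (9.20%) were lower, where 32.2% were. The members' median difference was 0.33, as was that of all genes; with quantile normalization it was 0.44, against 0.10 for all genes. The SD of the differences over genes was 2.10 for the members and 3.29 for all genes. With arrays centred on their median, which moves the all-gene median to 0, 24 members were higher and 20 lower in ahES cells, so 54.5% of those that passed were higher in place of 77.1%, while quantile normalization gave 30 higher and 10 lower (75%). The 3 round sperm arrays lay below all 18 other arrays for 39 members (44.8%), against 34.7% of genes, and above them for 23 (26.4%), against 30.5%. The 3′ to 5′ difference of the Gapdh control probe sets, a sign of RNA integrity, was 0.55 ± 0.17 (SD, n = 3) in round sperm against -0.24 ± 0.08 (n = 9) in ahES cells, and that of Actb 0.74 ± 0.25 against 0.55 ± 0.07. The part of RNA integrity and of the spermatocyte markers in the results below was not tested.

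In complex I, 7 of 33 subunits were lower in round sperm than in ahES cells and 2 higher, where 40.8% and 32.2% of all genes tested were. There were 6 lower and 9 higher for arrays centred on their median and 9 lower and 2 higher with quantile normalization. Ndufb11, an accessory subunit of the membrane arm, was at 7.97, 8.20 and 8.49 in round sperm and at 13.47, 13.62 and 13.85 (lowest, median, highest) in ahES cells, a 42.7-fold difference (5.42 ± 0.07, adjusted p = 2.34e-24). Ndufa1 was at 10.72, 10.76 and 10.65 in round sperm against 14.16, 14.20 and 14.34, an 11.5-fold difference (3.52 ± 0.04). These are the X-linked members, and on both the round sperm arrays lay below every array of the other groups. The other 5 that were lower in round sperm were Ndufa10, Ndufs7, Ndufb6, Ndufc2 and Ndufab1, by 1.72, 1.56, 1.54, 1.52 and 1.23.

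Among the 6 core subunits of complex I measured, which carry the flavin and the iron-sulfur clusters or scaffold them, Ndufs7 passed. It was at 10.57, 10.62 and 10.68 in round sperm and at 12.06, 12.17 and 12.29 in ahES cells. The other 5 differed by -0.96 (Ndufs3) to 0.98 (Ndufs8) and did not pass, Ndufv1, which holds the NADH site, at 0.03 ± 0.05. Some of these lay near the 2-fold threshold. Ndufs3 and Ndufv2 passed as higher in round sperm with arrays centred on their median, at -1.28 and -1.03, and Ndufs3 also without round sperm replicate 1, at -1.03. Ndufs8 passed as lower there with quantile normalization, at 1.10, and without round sperm replicate 2 or 3, at 1.02 and 1.06. Ndufb1 ran the other way from Ndufb11. It was at 11.68, 11.88 and 11.80 in round sperm and at 7.20, 8.27 and 8.88 in ahES cells, so it was 12.2-fold higher in round sperm (difference -3.61 ± 0.17, adjusted p = 7.24e-15). Ndufc1, the other subunit that was higher in round sperm, differed by -1.09 ± 0.04.

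The differences of the complex I assembly factors ranged from -4.13 to 6.37, with 2 of 8 lower in round sperm and 3 higher, against 40.8% and 32.2% of all genes tested. Ndufaf3 and Ndufaf4 are known to act together in building the complex, and they went opposite ways. Ndufaf3 was at 13.48, 13.74 and 13.80 in round sperm and at 9.38, 9.57 and 9.64 in ahES cells, 17.5-fold higher in round sperm (adjusted p = 9.52e-22). Ndufaf4 was at 8.18, 7.57 and 7.52 in round sperm and at 10.74, 10.97 and 11.32 in ahES cells, 9.57-fold lower in round sperm (adjusted p = 1.31e-18). For neither gene did the groups overlap. Ndufaf6 was at 4.33, 4.55 and 3.66 in round sperm, where its mean was at or below the 40th percentile, and at 10.02, 10.40 and 11.27 in ahES cells, at least 33.0-fold lower in round sperm. Ndufaf2 and Ndufaf8 were higher in round sperm, by 2.02 ± 0.07 and 2.10 ± 0.08. Ndufaf1, Ndufaf5 and Ndufaf7 did not pass, with differences of 0.24, 0.53 and -0.72.

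In complex II the membrane anchors fell and the catalytic subunits did not pass. Sdhc, which with Sdhd anchors the enzyme and holds its haem, was at 7.54, 7.45 and 7.59 in round sperm and at 10.61, 10.72 and 10.82 in ahES cells, 9.03-fold lower in round sperm (3.17 ± 0.06, adjusted p = 3.39e-22). Sdhd was at 9.69, 10.06 and 10.21 in round sperm against 11.63, 11.81 and 12.14, 3.69-fold lower. Neither anchor's round sperm arrays overlapped any other array. The flavoprotein Sdha differed by 0.15 and the iron-sulfur subunit Sdhb by -0.37. For Sdha the probe sets disagreed in size: another one gave 1.91, so its value rests on the choice of probe set. For the anchors, another probe set gave the same direction at a smaller size, 1.79 for Sdhc and 1.16 for Sdhd.

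In complex III, Cyc1, the cytochrome c1 that hands electrons to cytochrome c, was at 9.27, 9.72 and 9.86 in round sperm and at 13.07, 13.21 and 13.38 in ahES cells, 12-fold lower in round sperm (3.58 ± 0.08, adjusted p = 1.13e-20). Its groups did not overlap. Uqcr11 and the core protein gene Uqcrc2 were lower by 1.60 ± 0.06 and 1.44 ± 0.08, while the Rieske protein gene Uqcrfs1 and the other core protein gene Uqcrc1 differed by -0.55 and -0.80 without passing. Uqcrq, a small subunit, was higher in round sperm by 1.02 ± 0.05 on its main probe set, which may also read related sequences, where it was at 13.51 against 12.49 in ahES cells. The brightest of its other probe sets was dim and ran the other way, at 6.25 in ahES cells and 5.28 in round sperm. The round sperm mean was at or below the 40th percentile, so ahES cells were at least 1.68-fold higher on it. The direction for Uqcrq therefore rests on the choice of probe set.

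Complex IV held large differences in both directions, several of them within isoform families. Cox8c, known as a testis isoform, was at 13.97, 14.23 and 14.25 in round sperm and at 7.45, 7.70 and 7.99 in ahES cells, 87.6-fold higher in round sperm (difference -6.45 ± 0.16, adjusted p = 1.18e-19). MEF, at 7.92, 7.62 and 7.06, and diploid ES cells, at 7.15 to 7.93, overlapped ahES cells. Cox8a, the widely expressed form, was at 8.55, 8.61 and 8.96 in round sperm and at 13.25, 13.33 and 13.50 in ahES cells, 25-fold lower in round sperm (4.64 ± 0.08, adjusted p = 6.53e-23). Its MEF arrays, at 12.90, 12.73 and 12.85, lay below all 15 ES arrays, which ran from 13.24 to 13.51, by far less than round sperm did, and for both Cox8a and Cox8c no round sperm array overlapped an array of another group.

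Ndufa4 and Ndufa4l2 also went opposite ways. Ndufa4 was at 6.85, 7.53 and 7.75 in round sperm and at 13.57, 13.71 and 13.77 in ahES cells, 79.0-fold lower in round sperm (6.30 ± 0.11, adjusted p = 1.59e-21). Ndufa4l2 was at 9.82, 8.90 and 9.38 in round sperm and at 3.80, 4.36 and 5.79 in ahES cells, at least 14.2-fold higher in round sperm (difference -4.66 ± 0.34, adjusted p = 1.77e-11). Round sperm exceeded even CS1-1 on every array.

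Cox6b1, which helps to hold the complex IV dimer, was at 10.19, 10.74 and 10.50 in round sperm and at 14.31, 14.41 and 14.50 in ahES cells, 15.2-fold lower in round sperm (3.92 ± 0.07). Its testis counterpart Cox6b2, left out by the rule, had a mean level of 14.31 ± 0.05 (SD, n = 3) in round sperm, 10.39 ± 0.75 (n = 9) in ahES cells and 7.59 ± 0.10 (n = 3) in MEF. Cox7a1 was at 5.52, 4.83 and 4.70 in round sperm, at least 20.3-fold lower than in ahES cells, and Cox7c at 4.48, 5.32 and 6.16, at least 9.05-fold lower. Both were near the array background in round sperm. The Cox7c probe sets were dim for complex IV in ahES cells too, at 8.90 and 7.54, where the complex IV median was 13.42 to 13.62. Whether they read its main transcript was not tested.

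Cox7a2, the counterpart of Cox7a1, was at 14.90, 14.98 and 14.98 in round sperm, above every other array, and differed by -0.64, so this pair also lay on opposite sides, although Cox7a2 stayed under 2-fold. In the Cox4 and Cox6a families no member passed. Cox4i1 and Cox4i2, the latter known as a lung form, differed by 0.19 and -0.90, and Cox6a1 and the muscle form Cox6a2 by 0.43 and -0.80. With arrays centred on their median, Cox4i2 and Cox6a2 passed as higher in round sperm, at -1.23 and -1.13, as they did with quantile normalization, at -1.21 and -1.31. Both scatter widely among ES arrays. Cox5a, Cox5b, Cox6c and Cox7a2l differed by -0.05 to 0.33.

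**Figure D3:**
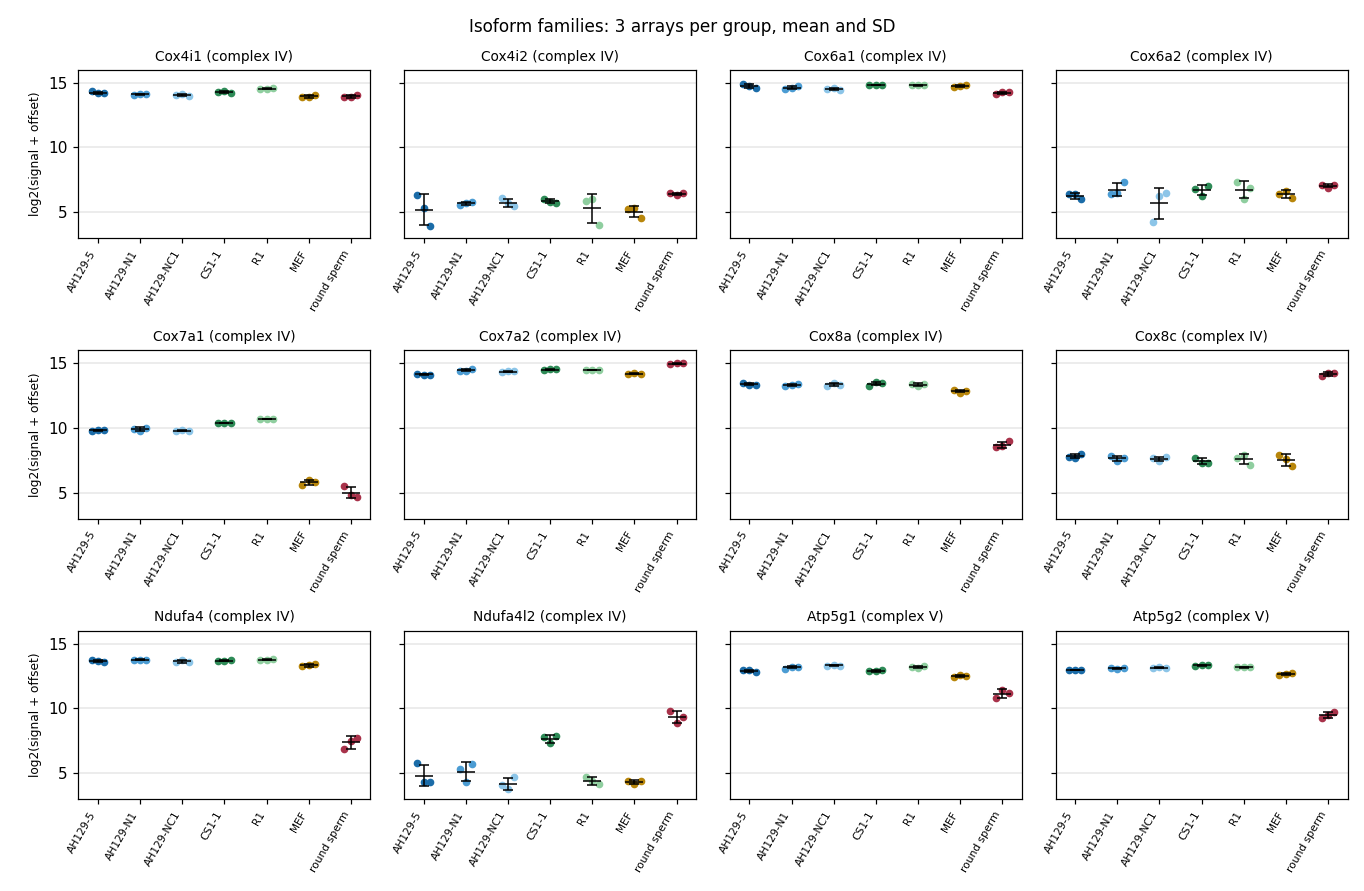
Levels, log2(signal + offset), of members of the Cox4i, Cox6a, Cox7a, Cox8, Ndufa4 and Atp5g isoform families on each array (points), with the mean and SD of the 3 arrays of each group. Cox8c and Ndufa4l2 are high where Cox8a and Ndufa4 are low, in round sperm; Cox7a1 is at 9.75 to 10.73 in the ES lines and at 4.70 to 5.97 in MEF and round sperm; levels of different genes come from different probe sets and are not compared.

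In complex V, 8 of 17 members were lower in round sperm and 0 higher, where 40.8% and 32.2% of all genes tested were. With arrays centred on their median, 6 were lower and 1, Atp5e, was higher. All 3 genes of subunit c, which forms the rotating ring, were among the lower members both ways. Atp5g2 was at 9.29, 9.50 and 9.69 in round sperm and at 12.98, 13.10 and 13.16 in ahES cells, 11.9-fold lower in round sperm (3.58 ± 0.06, adjusted p = 5.49e-23). Atp5g3 was at 11.13, 11.24 and 11.26 against 14.42, 14.49 and 14.61, 9.81-fold lower, and Atp5g1 was 3.94-fold lower. The round sperm arrays lay below every other array for all 3.

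In the catalytic head of the ATP synthase, 1 of the main subunits passed and the other did not. Atp5a1, the alpha subunit, was at 11.87, 11.97 and 11.97 in round sperm and at 13.69, 13.85 and 14.09 in ahES cells, 3.82-fold lower (1.93 ± 0.06, adjusted p = 1.34e-18). Atp5b, the catalytic beta subunit, differed by 0.79 and did not pass. The peripheral stalk gene Atp5pb was lower by 1.57 ± 0.07 and Atp5l, of the membrane part, by 1.41 ± 0.06, while the stalk subunits Atp5h, Atp5j and Atp5o differed by 0.68, -0.19 and 0.45. Atp5c1 and Atp5k were lower by 1.16 and 1.04, and with arrays centred on their median these and Ndufab1 no longer passed, at 0.84, 0.71 and 0.91.

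**Figure D4:**
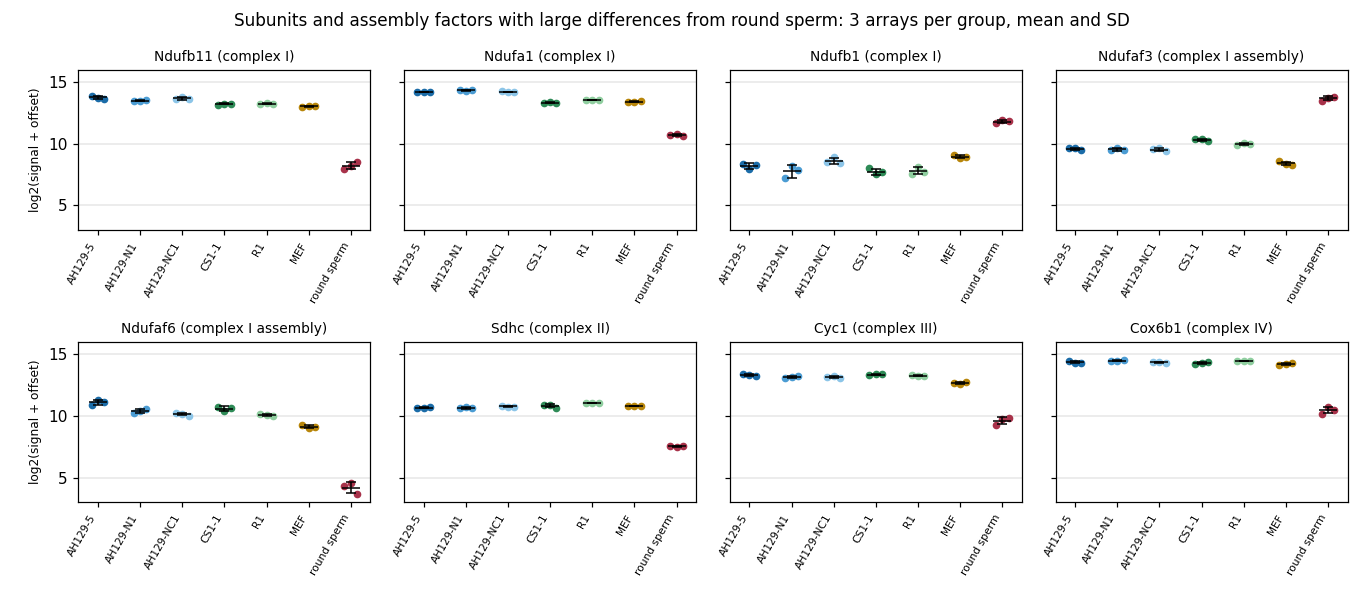
Levels, log2(signal + offset), of 8 members with large differences between round sperm and the other groups, on each array (points), with the mean and SD of the 3 arrays of each group. Ndufb1 and Ndufaf3 are highest in round sperm, and the other 6 are lowest there with no overlap.

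The direction of these differences was checked on the members' other probe sets. Of the 35 members that passed against round sperm, 22 had another probe set that could be used, and in 21 of them all others gave the same direction; the exception was Uqcrq. Over those 22 members, 28 of 30 other probe sets had the same direction, 24 of them at 2-fold or more. In 11 of the 30, 8 of them among those 24, the dimmer group's mean lay at or below the 40th percentile.

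MEF set against the same round sperm arrays gave 22 of 87 members (25.3%) higher in MEF, against 41.8% of the 14407 genes tested, and 18 (20.7%) lower, against 34.3%. This comparison shares its round sperm arrays with the comparison above, so the values stand side by side and are not a repeat. Ndufa4 differed by 5.96 in MEF against 6.30 in ahES cells, Ndufb11 by 4.81 against 5.42, Cox8a by 4.12 against 4.64, and Cox6b1 by 3.74 against 3.92. In the other direction Cox8c differed by -6.62 against -6.45, Ndufaf3 by -5.26 against -4.13 and Ndufb1 by -2.83 against -3.61. In complex I, 10 of 33 members were lower in MEF than in round sperm and 6 higher, while quantile normalization gave 6 lower and 9 higher. The lower ones were led by Ndufb1 and then by Ndufa6 (-1.64), Ndufb5 (-1.55) and Ndufv2 (-1.40). With arrays centred on their median, 14 members were higher and 25 lower in MEF, so 35.9% of those that passed were higher in place of 55.0%. Quantile normalization moved the counts the other way, to 28 higher and 14 lower (66.7%). The members' median lay below that of all genes by 0.28 with the deposited scaling and above it by 0.29 after quantile normalization, so its place relative to all genes depends on the scaling.

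Other genes of the pathway, taken from lists of related genes, were also found on both sides. Their shares are read against the 40.8% of all genes that were higher in ahES cells than in round sperm and the 32.2% that were lower. Of 21 genes for cytochrome c, carriers and coenzyme Q synthesis, 11 (52.4%) were higher in ahES cells and 6 (28.6%) lower, with a median of 1.32. Slc25a5 and Slc25a4, the ADP/ATP carriers of the inner membrane, were higher by 7.27 ± 0.07 and 7.65 ± 0.13, and Cycs, the somatic cytochrome c, by 4.75 ± 0.07. The 6 lower genes were Gpd2, Slc25a31, Cyct, Coq4, Vdac3 and Vdac2, from -3.16 to -1.04. Of 21 regulators of mitochondrial DNA and biogenesis, 12 (57.1%) were higher and 4 (19%) lower. Gabpa was higher by 4.49 ± 0.13 and Yy1 by 3.60 ± 0.05, and the lower ones were Polg, the mitochondrial DNA polymerase, at -2.01, Tfb1m at -1.81, Top1mt at -1.28 and Ppargc1a, at least 2.51-fold lower. Of 17 genes of the citric acid cycle and pyruvate dehydrogenase, 8 (47.1%) were higher and 3 (17.6%) lower, with Pdha1 higher by 7.29 ± 0.09. Of 39 assembly factors outside the member rule, 14 (35.9%) were higher and 10 (25.6%) lower, and Uqcc2, an assembly factor of complex III, was lower by 2.33 ± 0.07. Of 76 mitochondrial ribosome genes, 35 (46.1%) were higher and 11 (14.5%) lower, with a median of 0.84.

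Against MEF, where 21.1% of all genes were higher in ahES cells, 4 of 20 regulators (20%) and 4 of 21 cytochrome c and carrier genes (19%) were higher, near that share. Among the regulators were Nrf1 by 1.68 ± 0.07 and Tfam, which packages mitochondrial DNA, by 1.17 ± 0.11, and 1 regulator, Top1mt, was lower by 1.57. Cyct, known as the testis cytochrome c, was at least 16.5-fold higher in ahES cells than in MEF, and Slc25a31, a germ-cell ADP/ATP carrier, at least 6.12-fold. Of 76 mitochondrial ribosome genes 5 (6.58%) were higher and 0 lower, of 17 citric acid cycle genes 2 (11.8%) and 0, and of 37 assembly factors 2 (5.41%) and 2. Between ahES and diploid ES cells, Slc25a31, higher by 1.87 ± 0.34 (adjusted p = 0.000664), was the only gene of these lists that passed. No symbol for a mitochondrially encoded subunit was among the genes used here.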

How the data were processed

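Expression was measured on 21 Affymetrix arrays labelled from 3′ ends, 3 per group. The deposited values were log2 MAS5 signals, per the submitters' processing notes, which give no version; the log base was taken from the values, whose unlogged 2% trimmed mean was 500.0 on every array. MAS5 scaling makes each array's differences relative to its total signal. No detection calls were used, and the number of arrays limits the precision.

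Of 45101 probe sets, 34945 had 1 gene symbol in the platform annotation, 932 several and 9160 none, and 64 were controls. All 89 members matched RefSeq (GRCm38.p6). The key genes Cox7b, Atp5s and Atp5sl were not used here. Values were unlogged, 9.70 (median 20th percentile) was added, and log2 taken again. Genes were tested where all 3 arrays of a compared group exceeded the 40th percentile. limma 3.58.1 (statmod 1.5.0, R 4.3.3) was run with trend and robust moderation, as a mean per group over 21 arrays, or over the 15 ES arrays; for ahES minus diploid ES the line was a random block (consensus correlation 0.687). A group mean at or below the 40th percentile gives a bound, set against the larger of value and percentile on each array. In simulated data, log2 changes of 1.5 were recovered for 83% of genes in ahES minus diploid ES, 94% in ahES minus MEF and 94% in ahES minus round sperm (10916 genes each); where lines varied by gene, 77% were recovered and 74 unchanged genes were also called in ahES minus diploid ES.

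Named members were the listed key genes, up to 4 members that passed with the largest rise and fall per complex and comparison, every member of a set of 5 or fewer that passed, and isoform families. Members and lists were chosen with earlier results of these data known. Alternatives covered scaling, offset, filter, probe sets, moderation, the replicate block and leaving out arrays or lines. Same-numbered arrays did not deviate together (mean r = -0.0131 over 63 pairs), so numbers were not used as pairs. No arrays were identical, and arrays within groups correlated at r = 0.971 to 0.986.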

Additional observations from a re-analysis of the deposited data

Results flagged for a closer look

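Among named members, 118 groups of 6 or 9 arrays were examined for an array far from the others, and 5 were found, where chance alone gives about 1 in 20. Cox4i2 was lowest in AH129-5 replicate 3 among ahES arrays, at 3.94 with the next array at 5.30, and in R1 replicate 3 among diploid arrays, at 4.04 with the next at 5.74. Cox6a2 was at 4.28 in AH129-NC1 replicate 1, with the next ahES array at 6.03. Both genes were dim in ES cells. At high levels the gaps were small: Atp5b was at 14.44 in CS1-1 replicate 2, with the next diploid array at 14.34, and Ndufs7 at 11.92 in R1 replicate 2, with the next at 12.08. Ndufa4l2 differed by 3.25 (at least 4.48-fold, R1 being near the array background) between CS1-1 and R1, so its difference from ahES cells depended on the diploid line, by the limma test of that difference.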

How the results depend on the processing

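Centring arrays on their median gave 20 members lower in ahES cells than in round sperm in place of 8, 14 higher in MEF than in round sperm in place of 22 (28 with quantile normalization, where 14 were lower in place of 18), and 1 lower in AH129-5 than in AH129-N1 (Cox7c) in place of 0. Without line R1, 2 members were lower in ahES than in diploid ES cells. The mean over probe sets gave 1 member higher in AH129-5 than in AH129-N1 (Cox8c, 1.16), and leaving out _x_at and _s_at probe sets gave 1 lower in AH129-5 than in AH129-NC1 (Cox7c, -1.01) and turned Uqcrq between ahES cells and round sperm to 0.97, on a dim probe set; its other weaker values were -0.83 with quantile normalization, -0.03 as the mean over probe sets, and -0.98 and -0.96 without round sperm replicate 2 or 3. Leaving out single arrays gave 0 to 1 higher in AH129-5 against AH129-NC1 (Ndufaf6, without replicate 1 of either line), 0 to 1 higher in AH129-N1 against AH129-NC1 (Cox6a2, without AH129-NC1 replicate 3) and 0 to 1 lower there (Ndufb1, without AH129-N1 replicate 2). Against round sperm it gave 27 to 30 higher and 7 to 10 lower in ahES cells, and against MEF 5 higher throughout. The causes were not tested, except that dropping probe sets changes which are read.

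With the replicate number as a block (replicate block), 27 members were higher and 8 lower in ahES cells than in round sperm and 5 higher than in MEF, as without it; 2 of 21 arrays were nearest an array of their own number. Dim members (Cox4i2, Cox6a2, Ndufa4l2, Cox8b, Ndufb4) are limited by signal over background.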
